A study of Mus musculus with 4 samples.

Results

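The cells described here were macrophages that carried RNA of Prg4 or Alox15 together with Marco, a combination found on macrophages of the body cavities. They came from MC38 liver metastases, tumours that this mouse colon carcinoma line forms in the liver of C57BL/6J mice. The titles of all 4 libraries call the mice WT (wild type), while WT in the library names below refers to the tumour line. Cells had been selected for CD45, the leukocyte surface phosphatase, on magnetic beads and sequenced by 10x Genomics 3′ chemistry. Diet and tumour line were crossed in 4 libraries. HFD_shYap held tumours of the Yap knockdown line (shYap-MC38) under high-fat diet, and HFD_WT tumours of the parental line (WT-MC38) under high-fat diet. LFD_shYap held tumours of the knockdown line under low-fat diet by its title, while its treatment field gives a high-fat diet, and LFD_WT held tumours of the parental line under low-fat diet. The labels do not say how many mice a library pooled, and there was 1 library per combination. A p-value therefore measures at most the spread between these libraries. In the diet and line comparisons it rests on a spread pooled over genes and treated as known.

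A cell was a member if it had at least 300 detected genes, under 15% mitochondrial UMIs (unique molecular identifiers, the counts of captured RNA molecules), and at least 2 UMIs of Prg4 and Alox15 summed. It also needed at least 1 UMI of Marco and at least 2 UMIs of the macrophage genes Csf1r, Adgre1 and Cd68 summed. Cells with 3 or more UMIs of the Kupffer cell gene Clec4f or of Jaml, or with more than 1 UMI of the T cell genes Cd3d, Cd3e and Cd3g, were left out. This gave 60 members of 42617 barcodes kept and of 24999 macrophages passing the same gate without the Prg4, Alox15 and Marco conditions. The members numbered 9 in HFD_shYap, 15 in HFD_WT, 25 in LFD_shYap and 11 in LFD_WT. The other 24939 macrophages are called other macrophages below. Levels are given as CPM, a gene's UMIs relative to all UMIs of the summed cells (counts-per-million scaling).

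Serous cavities such as the peritoneum hold large resident macrophages that depend on the transcription factor GATA6 and on retinoic acid from the surrounding mesothelium. They are known for Prg4, Alox15, Icam2, Selp and clotting factors, for little MHC class II, and for moving onto the surface of injured abdominal organs. Small peritoneal macrophages, which arise from monocytes, express MHC class II and Ccr2 in their place, and Kupffer cells are the resident macrophages of the liver sinusoids, marked by Clec4f.

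Members made up 0.196% of the gated macrophages in HFD_shYap (exact 95% Clopper-Pearson interval 0.0898 to 0.372), 0.209% in HFD_WT (0.117 to 0.344), 0.512% in LFD_shYap (0.332 to 0.755) and 0.132% in LFD_WT (0.0658 to 0.236). The interval of LFD_shYap overlapped those of both high-fat libraries, and lay above that of LFD_WT. Intervals cover counting error only, and with 1 library per combination no test between groups was made. Members were deeper than other macrophages, with median UMIs per cell of 27206, 26900, 15626 and 12642 in HFD_shYap, HFD_WT, LFD_shYap and LFD_WT, against 11692, 10221, 9193 and 8199.5 in other macrophages of those libraries. When every barcode was first thinned to 3000 UMIs, 4, 5, 15 and 3 cells still met the rule in the same order of libraries. Among cells that met the Prg4, Alox15 and Marco conditions, the other gene gates of the rule kept 2 of HFD_WT and 8 of LFD_shYap out.

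The deposited matrices held 9582 to 14779 barcodes and 106268471 to 144936859 UMIs per library, and the members' own sums were 265583, 499003, 440290 and 159124 UMIs. Yap1, the target of the knockdown, had 0 UMIs in the members of every library and stood at 0.993, 1.16, 1.81 and 2.33 CPM in other macrophages of HFD_shYap, HFD_WT, LFD_shYap and LFD_WT. The knockdown was in the tumour line, so these cells do not check it, and each line direction below rests on the labels. The library labelled HFD_shYap held both cells with the female RNA Xist and cells with Y-linked RNA. Among its 9 members 3 had Xist alone, 3 had Y-linked UMIs alone (Ddx3y, Eif2s3y, Kdm5d, Uty) and 3 had both. Members of the other libraries had 0 Xist UMIs, and 38 of those 51 had Y-linked UMIs. Between 33 and 63 barcodes occurred in both libraries of a pair, and no barcode was a member in more than 1 library. Of the 60 members, 2 were among the barcodes of highest doublet score, both in LFD_shYap.

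The genes of the rule chose the members, so their levels are a description and were not tested. Prg4 (GRCm38 chromosome 1, 150449412 to 150466165), which encodes the lubricant lubricin, stood in members at 437, 230.5, 549.6 and 591 CPM in HFD_shYap, HFD_WT, LFD_shYap and LFD_WT. Alox15 (chromosome 11, 70344152 to 70352031), a lipoxygenase of polyunsaturated fatty acids, stood at 1189.8, 160.3, 413 and 314 CPM. Its high value in HFD_shYap included 1 cell with 219 of the 628 Alox15 UMIs of all members. Marco (chromosome 1, 120474538 to 120505024), a scavenger receptor for bacteria and particles, stood at 2956 and 2645 CPM under high-fat diet, in HFD_shYap and HFD_WT, and at 7838 and 5807 CPM under low-fat diet, in LFD_shYap and LFD_WT. The 60 members, 0.24% of the gated macrophages, held 49.3% of their Prg4 UMIs, 67.7% of their Alox15 UMIs and 48.1% of their Marco UMIs. As a measure of free RNA, 1673 cells with more than 1 UMI of the Cd3 genes and none of Csf1r, Adgre1 and Cd68 were read. Of these, 2.27% had a Marco UMI, 0.12% a Prg4 UMI and 0.0598% an Alox15 UMI. Their median was 5445 UMIs per cell, against 17695.5 in members. Because they were chosen without macrophage RNA and were shallower, these rates can understate free RNA in members.

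Saa3 (chromosome 7, 46711998 to 46715700), a serum amyloid A made by activated macrophages, was not part of the rule. It stood in members at 4902, 2148, 3507 and 7032 CPM in HFD_shYap, HFD_WT, LFD_shYap and LFD_WT, against 77, 71.3, 225 and 109 CPM in other macrophages. Every library of members lay above every library of other macrophages. A UMI of Saa3 was found in 55 of the 60 members.

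**Figure D1:**
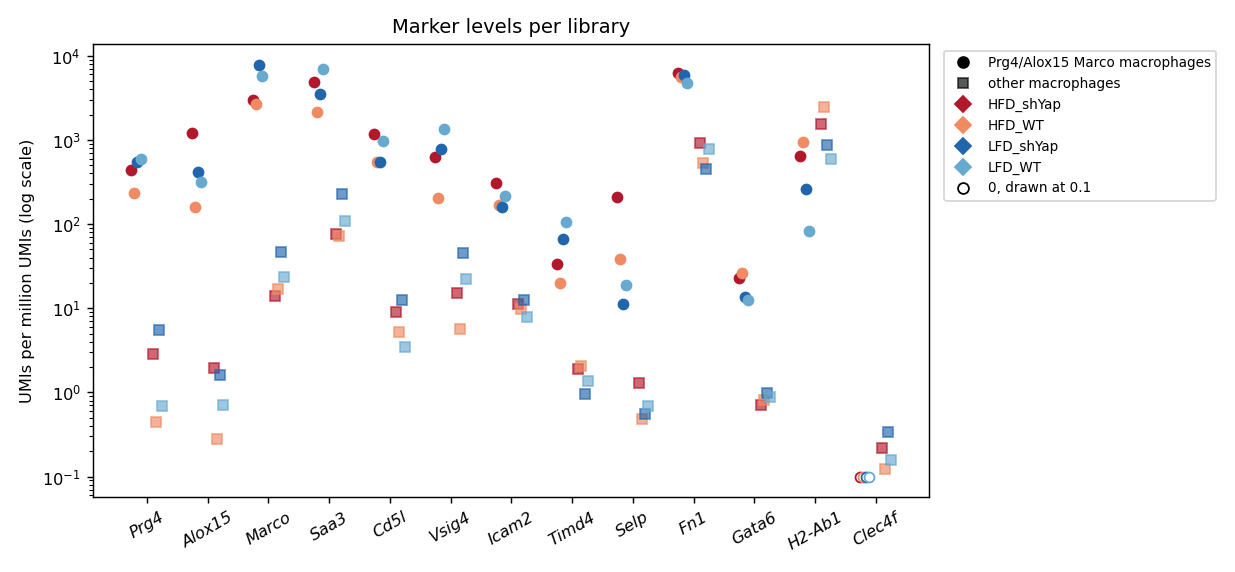
CPM (log axis) of 13 genes in each of the 4 libraries, with circles for the Prg4/Alox15 Marco macrophages at the left of each gene, squares for other macrophages at the right, and an open symbol at 0.1 for a value of 0. Prg4, Alox15, Marco and Clec4f were in the cell rule; H2-Ab1 was lower in members than in other macrophages of the same library in all 4 libraries, and Clec4f was at 0 in all members.

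Promoter windows (250 bases before to 50 after the start, RefSeq on GRCm38.p6) are shown for Marco and Saa3 and for Cd5l and Timd4, a pair of genes among the 12 with the highest fold change in members below. Capitals mark GATA motifs, the letters bound by the factor family of Gata6, searched on both strands as AGATAA, as TGATAA, as AGATAG and also as TGATAG. Each window is written in the direction of transcription.
Marco promoter, chr1:120504975-120505274, minus strand: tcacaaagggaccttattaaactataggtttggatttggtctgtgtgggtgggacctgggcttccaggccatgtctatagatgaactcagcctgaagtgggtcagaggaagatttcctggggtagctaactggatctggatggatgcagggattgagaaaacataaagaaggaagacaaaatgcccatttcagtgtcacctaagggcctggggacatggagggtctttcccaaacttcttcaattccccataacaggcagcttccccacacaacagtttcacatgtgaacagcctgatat
Saa3 promoter, chr7:46715627-46715926, minus strand: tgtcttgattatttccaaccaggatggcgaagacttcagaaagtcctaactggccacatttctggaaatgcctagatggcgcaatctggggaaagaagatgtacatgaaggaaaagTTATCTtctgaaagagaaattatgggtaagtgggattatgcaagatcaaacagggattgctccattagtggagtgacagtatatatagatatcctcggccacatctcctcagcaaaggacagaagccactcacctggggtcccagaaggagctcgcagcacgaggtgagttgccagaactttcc
Cd5l promoter, chr3:87357631-87357930, plus strand: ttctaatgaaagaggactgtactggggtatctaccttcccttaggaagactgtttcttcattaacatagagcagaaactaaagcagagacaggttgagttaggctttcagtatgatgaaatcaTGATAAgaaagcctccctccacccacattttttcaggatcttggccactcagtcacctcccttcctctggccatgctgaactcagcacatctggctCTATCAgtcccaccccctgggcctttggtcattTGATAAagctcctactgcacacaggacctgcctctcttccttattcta
Timd4 promoter, chr11:46810549-46810848, plus strand: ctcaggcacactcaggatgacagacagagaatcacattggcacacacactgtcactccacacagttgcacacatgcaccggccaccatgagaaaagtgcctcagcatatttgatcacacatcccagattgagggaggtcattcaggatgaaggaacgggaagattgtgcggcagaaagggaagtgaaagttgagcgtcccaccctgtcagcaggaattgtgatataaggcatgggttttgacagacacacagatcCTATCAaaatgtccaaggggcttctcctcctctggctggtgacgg
The Cd5l window held 3 such motifs, the Saa3 and Timd4 windows 1 each, and the Marco window 0. Of the 12 genes, 9 matched the promoter table, with 11 windows, and 4 of these windows held a GATA motif, those of Cd5l, Saa3, Timd4 and 1 of the Serpinb2 windows. Among all 32851 windows, 29.8% held one. Of the other motifs searched on both strands, the PU.1 motif GAGGAA was in 4 of the 11 windows (4 genes), against 28.3% of all windows. The C/EBP motif TTGCNNAA was in 3 windows (2 genes), against 10.8%. The AP-1 motif TGANTCA, which like TGATAA begins with TGA, was in 4 windows (3 genes), against 7.81%. Serpinb2 has 2 windows that overlap each other, and both held the C/EBP and AP-1 motifs. These are matches of letters, not binding sites.

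For each library, UMIs were summed over the members and over the other macrophages, and compared by edgeR's quasi-likelihood test with library as a block, leaving the rule genes out. Of 12834 genes tested, 705 (5.49%) were higher and 781 (6.09%) lower in members, at an adjusted p under 0.05. Of those, 597 were higher and 745 lower in all 4 libraries. The median log2 fold change of all tested genes was -0.13. Choosing cells by Prg4, Alox15 and Marco also chooses genes expressed with them, and members were the deeper cells, so these calls describe the gated cells. With each cell thinned to 3000 UMIs, 194 of 10484 tested genes were higher and 573 lower, with the median of all tested genes at -0.52. The split of higher and lower calls was 802 and 628 with RLE size factors and 768 and 424 with DESeq2.

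Genes of large peritoneal macrophages were higher in members, from Selp at 6.26 to Itga6 at 0.99 on the log2 scale. All 17 listed genes passed the filter on low counts. Of these, 15 were higher, none lower, and the list's median log2 fold change was 4.30. Thinned to 3000 UMIs, 13 could be tested and 8 were higher. The list was chosen with earlier results of these data known, and the cells by Prg4 and Alox15, so these counts are a description. Gata6, the factor that maintains these cells, stood in members at 22.6, 26.1, 13.6 and 12.6 CPM in HFD_shYap, HFD_WT, LFD_shYap and LFD_WT, against 0.698, 0.808, 0.988 and 0.883 CPM in other macrophages. These levels rest on 27 UMIs in 20 of the 60 members, and the log2 fold change was 4.53 ± 0.49 (SE, edgeR adjusted p = 2e-06). Rarb, a retinoic acid receptor, had 11 UMIs in 9 members and was higher by 5.43 ± 0.85 (edgeR adjusted p = 0.00015). The 2 listed genes that were not called were Cd93, at -0.19 ± 0.18, and Bhlhe41, at 0.29 ± 0.30.

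Adhesion molecules were among them. Icam2, a ligand of leukocyte integrins, stood in members at 309, 168, 159 and 214 CPM in HFD_shYap, HFD_WT, LFD_shYap and LFD_WT, against 11.2, 9.87, 12.5 and 7.95 CPM in other macrophages (log2 fold change 4.30 ± 0.20, edgeR adjusted p = 3.6e-11). Selp, the P-selectin that tethers leukocytes and platelets, stood in members at 211, 38.1, 11.4 and 18.9 CPM, against 1.29, 0.482, 0.559 and 0.69 CPM. In both genes the groups did not overlap. The Selp value of HFD_shYap was more than 5 times that of any other library of members, and 1 cell held 34.9% of all Selp UMIs. Itga6, an integrin of the laminin receptors, was at 233, 194, 149.9 and 145 CPM in members, against 126, 78.8, 78.1 and 88.9 CPM.

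Clotting genes were also higher. Of 15 tested genes of coagulation and fibrinolysis, 8 were higher and 1, the urokinase gene Plau, was lower. F7, the start of the extrinsic clotting cascade, stood in members at 211, 100.2, 99.9 and 94.3 CPM, against 8.45, 6.49, 5.65 and 5.73 CPM in other macrophages (4.22 ± 0.21, edgeR adjusted p = 7.1e-11). F10, which F7 activates, was higher by 2.84 ± 0.19, and F3, the tissue factor that binds F7, by 3.02 ± 0.44. F5, the cofactor of activated F10, was at 105, 16.0, 20.4 and 0 CPM in members of HFD_shYap, HFD_WT, LFD_shYap and LFD_WT, against 3.63, 3.05, 1.04 and 2.48 CPM, so the members of LFD_WT lay below every other library. Serpinb2, an inhibitor of plasminogen activators, stood in members at 441, 178, 4.54 and 182 CPM, against 3.74, 2.85, 1.53 and 2.01 CPM, with LFD_shYap close to other macrophages.

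The 12 highest genes by the naming rule were Cd5l, Prok2, Selp, Serpinb2, Jam2, Clmn, Saa3, Slc7a2, Vsig4, Cdkn2a, Serpinb1a and Timd4, with log2 fold changes of 5.02 to 6.81 and edgeR adjusted p of at most 3.9e-07. Cd5l, a secreted protein of tissue macrophages that blocks their apoptosis, was the highest. It stood in members at 1167, 545, 543 and 980.4 CPM in HFD_shYap, HFD_WT, LFD_shYap and LFD_WT, against 8.97, 5.18, 12.5 and 3.46 CPM, and 49 of 60 members had a UMI. Slc7a2, which imports cationic amino acids such as arginine, stood at 941, 569, 157 and 377 CPM in members, against 29.1, 14.8, 7.12 and 5.89 CPM. Arg1, the enzyme that cleaves arginine, was at 6992, 4703, 3037 and 3890.1 CPM in members, against 1033, 677, 486 and 671 CPM (2.69 ± 0.10, edgeR adjusted p = 1.6e-12), and every member had Arg1 UMIs. Cdkn2a, an inhibitor of the cell cycle, had UMIs in 12 members, and Prok2, a secreted chemoattractant, in 18. Serpinb1a, an inhibitor of neutrophil elastase, owed 43.6% of its UMIs to 1 cell.

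Enzymes of eicosanoid synthesis moved both ways. Of 15 tested genes of eicosanoid synthesis and breakdown 7 were higher and 4 lower. Ltc4s, the leukotriene C4 synthase, stood in members at 746, 549, 1002 and 955 CPM, against 125, 68.0, 213 and 251 CPM in other macrophages (2.44 ± 0.15, edgeR adjusted p = 1.2e-09). Alox5, the 5-lipoxygenase, was higher by 2.58 ± 0.23, its activating protein Alox5ap by 0.83 ± 0.11 and Ptgs1, the constitutive cyclooxygenase, by 1.64 ± 0.15. Lta4h, the leukotriene A4 hydrolase, was not called (0.58 ± 0.29). The prostaglandin-degrading dehydrogenase Hpgd had 0 UMIs in the members, which allows up to 2.20 CPM over all members, against 9.75 to 19.4 CPM in other macrophages. The prostaglandin D2 synthase Hpgds was lower, with a log2 fold change of -2.26 ± 0.30.

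Scavenger and matrix genes split. Of 14 tested genes on the scavenger receptor list 8 were higher and 4 lower. Among the higher were the oxidised LDL receptor Olr1 (3.68 ± 0.27), Cd36 (2.27 ± 0.18) and Fcna (3.23 ± 0.17), a secreted ficolin rather than a receptor. Mrc1 (-1.22) and Stab1 (-1.20) were among the lower. Of 18 matrix and adhesion genes, 13 were higher and 4 lower. Fn1, which encodes fibronectin, was found in every member and stood at 6296, 5621, 5842 and 4795 CPM in members of HFD_shYap, HFD_WT, LFD_shYap and LFD_WT, against 906, 535, 449 and 782 CPM (3.13 ± 0.15, edgeR adjusted p = 4.4e-11). Vcam1, an adhesion molecule, went the other way, at 7.53, 68.1, 75.0 and 44 CPM in members, against 339, 254, 544 and 232 CPM. Of 12 tested matrix metalloproteinases and inhibitors, 6 were lower, all of them proteinases (Mmp12 at -4.09, Mmp9 at -2.92), and the inhibitor Timp2 was higher by 1.38. Among 14 lipid-associated macrophage genes 8 were higher, including the fatty acid binding protein Fabp4 (3.70 ± 0.22), and Apoe was lower (-0.76 ± 0.13).

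**Figure D2:**
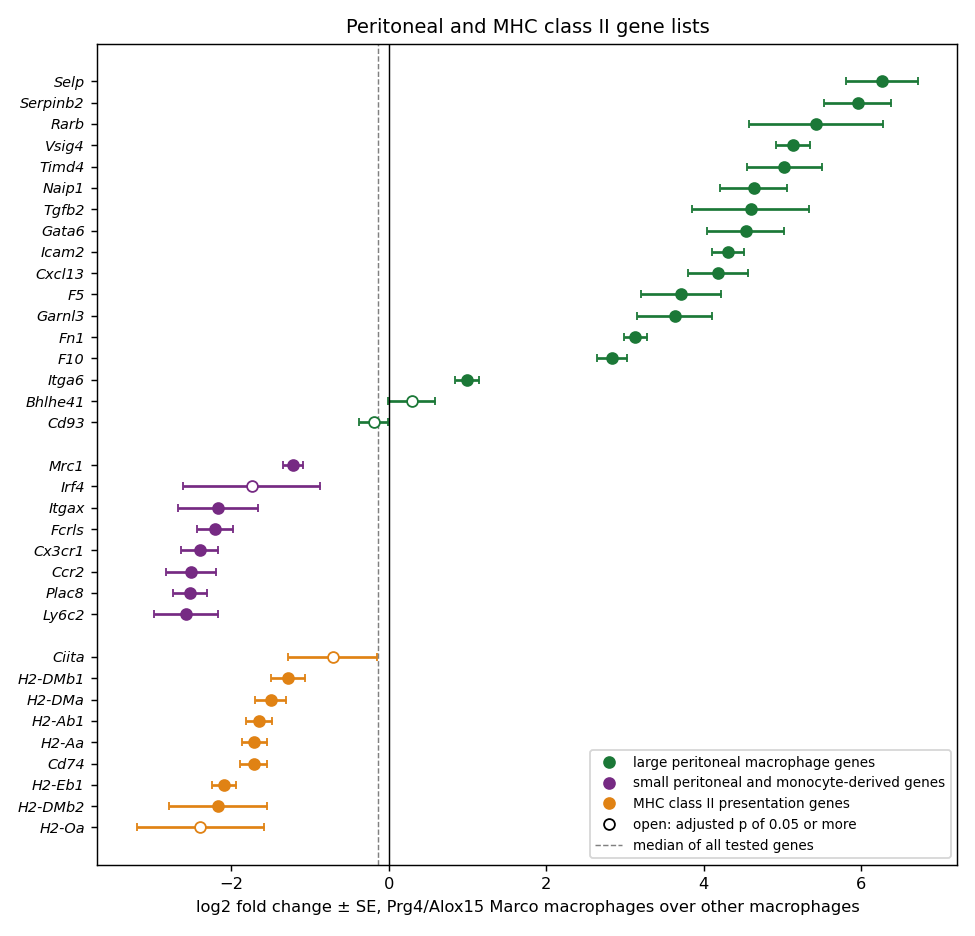
Log2 fold change of members over other macrophages with its standard error (edgeR) for the genes of 3 lists, with filled circles for an adjusted p under 0.05 and a dashed line at the median of all 12834 tested genes, -0.13. Of the large peritoneal genes 15 of 17 lie to the right as filled circles, and the called genes of the other lists lie to the left; Cd226, with no UMI in the members, is not drawn.

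MHC class II genes were lower in members within every library. Of 9 tested genes of MHC class II presentation 7 were lower, none higher, with a list median of -1.71. H2-Ab1, a beta chain of the molecule, stood in members at 651, 934, 259 and 81.7 CPM in HFD_shYap, HFD_WT, LFD_shYap and LFD_WT, against 1540.2, 2479, 859.7 and 591 CPM (-1.64 ± 0.16, edgeR adjusted p = 8.2e-07). The groups overlapped across libraries, the high-fat members lying near the low-fat other macrophages. Genes of small peritoneal and monocyte-derived macrophages fell likewise, 7 of 9 tested, with none higher. Ccr2, the receptor that brings monocytes from the blood, stood in members at 18.8, 26.1, 2.27 and 69.1 CPM, against 164, 128, 105 and 128 CPM, so the groups did not overlap. The median of that list was -2.40, or -2.20 with Cd226 at the bound that 0 UMIs allow.

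Interferon and stress genes were lower too. Of 13 tested type I interferon-stimulated genes 9 were lower and none higher, with Isg15 at -2.17 ± 0.29. The list summed to 271, 457 and 104 CPM in members of HFD_shYap, HFD_WT and LFD_shYap, against 903, 1022 and 732 CPM in other macrophages, but to 1119 CPM in members of LFD_WT, against 1165 CPM. Of 11 genes induced by tissue dissociation 7 were lower and none higher, with Fosb at -1.39. Of 20 chemokines 6 were higher, among them Cxcl13 (4.18 ± 0.38), the B cell attractant of serous cavities, and Ccl6 (2.12 ± 0.21), and 10 were lower, among them Ccl5 (-2.56 ± 0.23) and Cxcl9 (-2.15). The 10 lowest genes by the naming rule were Col3a1, Ms4a4c, Col14a1, Acp5, Cd83, Stap1, Vcam1, Rab3il1, Ly6c2 and Ccl5, with log2 fold changes of -3.28 to -2.56. Cd83, an activation marker of antigen-presenting cells, stood at 26.4, 34.1, 15.9 and 44 CPM in members, against 251, 184, 164 and 199.8 CPM. Macrophage identity genes, by contrast, were split, with 3 higher and 5 lower of 14 tested, and the transcription factors Spi1 (-0.01) and Cebpb (0.02) were not called.

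**Figure D3:**
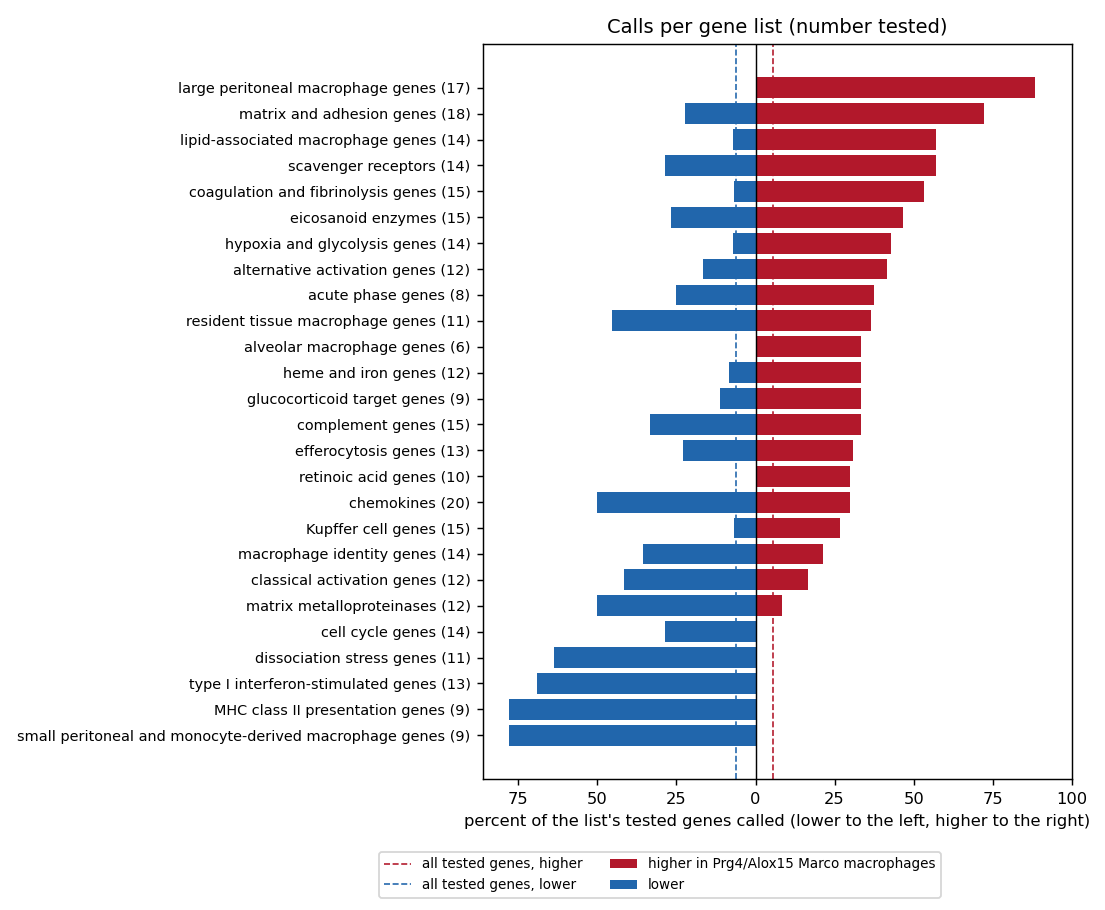
For each of 26 gene lists, the percent of its tested genes (number in parentheses) called higher (red, to the right) or lower (blue, to the left) in members than in other macrophages, with dashed lines at 5.49% higher and 6.09% lower of all tested genes. The list of large peritoneal macrophage genes stands at the top with 15 of 17 genes higher, and the small peritoneal and MHC class II lists at the bottom with 7 of 9 lower.

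Genes of other cell types were summed in the same way. Of 8 listed T cell genes, 3 of them the Cd3 genes that the rule capped, 8, 7, 4 and 8 were at 0 in members of HFD_shYap, HFD_WT, LFD_shYap and LFD_WT, and the summed level was 0 to 9.08 CPM in members, against 13.3 to 25.3 CPM in other macrophages, so these low levels are in part set by the rule. Of 10 mesothelial genes, 10, 7, 7 and 10 were at 0, and they summed to 0 to 22.7 CPM in members, against 10.1 to 37.1 CPM in other macrophages. Hepatocyte genes summed to 1672, 1024, 627 and 647 CPM in members, against 741, 682, 919 and 741 CPM, with 8 or 9 of the 10 listed genes at 0 in each library of members. Trf, the transferrin gene, gave 444, 511, 275 and 102 of the 444, 511, 276 and 103 UMIs behind these sums in members. Neutrophil genes summed to 86.6, 184 and 258 CPM in members of HFD_shYap, HFD_WT and LFD_WT and to 25174 CPM in those of LFD_shYap, against 307 to 945 CPM in other macrophages. In LFD_shYap 1 cell held 94.3% of the S100a8 UMIs of all members and every Ngp and Ltf UMI. Fibroblast genes summed to 331 CPM in members of HFD_WT and to at most 31.8 CPM in the others, against 183 to 309 CPM in other macrophages. Genes of MC38-like cells summed to 143, 525, 102 and 101 CPM in members of HFD_shYap, HFD_WT, LFD_shYap and LFD_WT, against 52.7, 96.8, 102 and 120.4 CPM. Tm4sf1 gave 198 of the 262 UMIs in HFD_WT, and 6 of the 7 listed genes were at 0 in HFD_shYap. The part of such RNA in other results was not tested, except that leaving out the 1 cell rich in S100a8 gave 677 genes higher and 885 lower.

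Of 15 tested Kupffer cell genes, 4 were higher in members than in other macrophages (Cd5l, Vsig4, Timd4 and Folr2) and 1, Slc40a1, was lower. Kupffer cells share Marco, Vsig4, Timd4 and Cd5l with large peritoneal macrophages, and members were also compared with the 101 Clec4f-positive macrophages of the 4 libraries. That class was chosen by 3 or more Clec4f UMIs, which members could not have, so genes expressed with Clec4f were bound to be lower in members, and the values are a description. Of 4383 genes tested, 386 (8.81%) were higher and 329 (7.51%) lower in members. Of 13 tested Kupffer genes 12 were lower and none higher, such as Slc40a1, the iron exporter (-8.11), and Spic, a factor of red pulp and Kupffer macrophages (-5.19). Vsig4 (-0.77), Timd4 (-1.34) and Cd5l (-1.59) were lower in members than in Clec4f-positive cells, while they were higher than in other macrophages. F7 (6.99), F10 (5.82), Fn1 (5.74) and Icam2 (3.95) were higher in members. Against the 830 macrophages with Marco but no Prg4 or Alox15 UMI, 534 of 7536 genes (7.09%) were higher and 399 (5.29%) lower, and 11 of 13 tested large peritoneal genes were higher.

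Cells next to the thresholds carried part of the same profile. At the lower limit, 14 members had exactly 2 UMIs of Prg4 and Alox15, and 6 had exactly 1 of Marco. Just outside, 23 macrophages had Marco with 1 UMI of Prg4 or Alox15, and pooled over libraries they held Saa3 at 1543 CPM, Fn1 at 3845 CPM, Icam2 at 57.3 CPM and Gata6 at 0 CPM. The members, pooled in the same way, held 3693, 5727, 197.9 and 19.8 CPM of these genes. A further 69 macrophages met the Prg4 and Alox15 condition with no Marco UMI, at a median depth of 18998 UMIs, and held Saa3 at 2829.7 CPM, Fn1 at 4882 CPM, Icam2 at 140.2 CPM, Slpi at 2728 CPM and Gata6 at 43.7 CPM. They held Vsig4 at 309.9 CPM against 606 CPM in members, and Msln, a mesothelial gene, at 186 CPM, from 5 of the 69 cells, against 11 CPM in members, from 3 of 60. Thinned to 3000 UMIs, 45 of the 60 members (75%), 40 of 68 of these Marco-negative cells (58.8%) and 2477 of 22521 other macrophages (11.0%) had at least 3 of the 17 large peritoneal genes. So did 26 of 97 Clec4f-positive macrophages (26.8%) and 105 of 739 with Marco but no Prg4 or Alox15 UMI (14.2%).

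The 60 members were not uniform. Both Prg4 and Alox15 were found in 27 cells, Prg4 alone in 17 and Alox15 alone in 16, and across the 60 cells the levels of the pair had a Spearman rho of 0.06. Marco ranged from 1 to 477 UMIs per cell, with a median of 91, and 41 cells had 50 or more. Vsig4, the complement receptor that binds C3 fragments, was at 0 in 36 cells and reached 86 UMIs in the others. Vsig4 was found in 3 of 9 members of HFD_shYap, 3 of 15 of HFD_WT, 10 of 25 of LFD_shYap and 8 of 11 of LFD_WT, and after thinning to 3000 UMIs in 3, 2, 9 and 7 of them. Gata6 was found in 5, 9, 4 and 2 members in the same order, but after thinning in 1, 1, 0 and 0, so at equal depth its spread over libraries cannot be read. Both Vsig4 and Gata6 were found in 6 cells, Gata6 without Vsig4 in 14, Vsig4 without Gata6 in 18 and neither in 22. Levels of Marco and Vsig4 had a rho of 0.57 over the cells. These cells share libraries and differ in depth, so the correlations are descriptions.

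**Figure D4:**
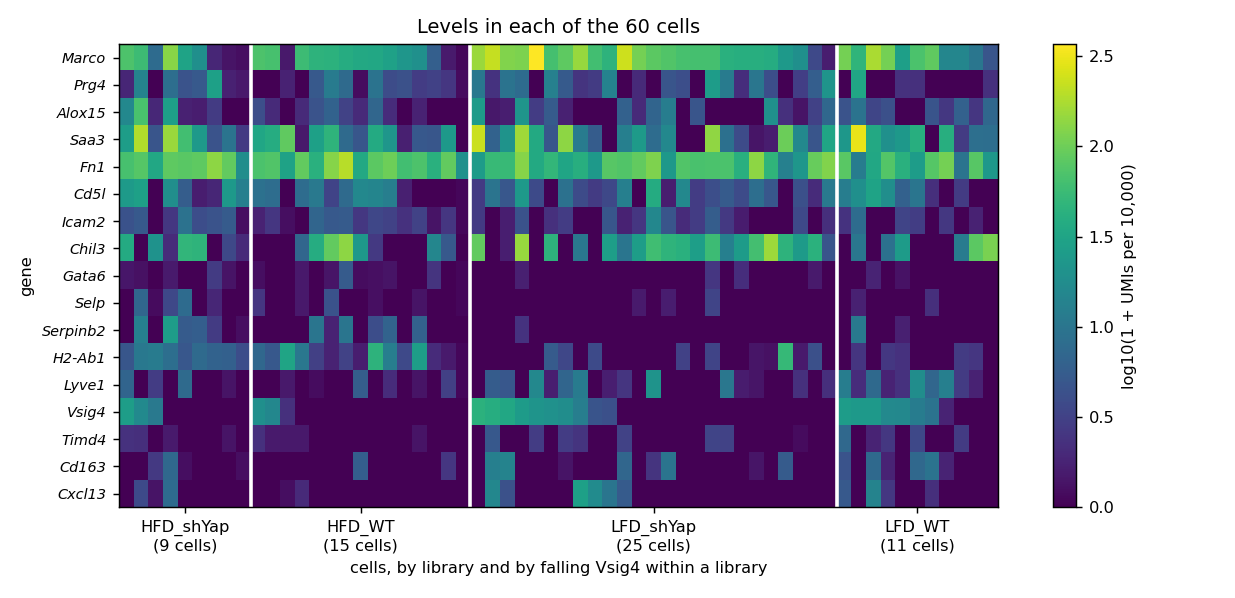
Heat map of 17 genes (rows) in each of the 60 members (columns), coloured by level on the log10 scale of the colour bar, with cells grouped by library and ordered by falling Vsig4 within it. Fn1 is present in every column, while Vsig4 fills the left of each library, 3 of 9, 3 of 15, 10 of 25 and 8 of 11 cells.

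Diet was compared among the members' 4 sums, high-fat against low-fat over both tumour lines, which leaves 1 residual degree of freedom. Of 4313 genes tested, 26 (0.603%) were higher and 11 (0.255%) lower under high-fat diet at an edgeR adjusted p under 0.05. DESeq2 called 5 genes, 4 of them among the 37, the comparison without the 6 Xist-bearing members of HFD_shYap called none (120 at an unadjusted p under 0.05), and reading LFD_shYap as high-fat kept 14 of the 37. Without LFD_shYap 4 genes were called and without LFD_WT 14.

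MHC class II genes were higher in high-fat members. Of 6 tested genes 5 were higher, with a list median of 2.07 against 0.00 for all tested genes. Cd74, the invariant chain, stood at 2048 and 2028 CPM in members of HFD_shYap and HFD_WT, against 504 and 258 CPM in LFD_shYap and LFD_WT (2.43 ± 0.41, edgeR adjusted p = 1.5e-06). H2-Ab1 stood at 651 and 934 CPM, against 259 and 81.7 CPM (2.24 ± 0.39). The diets did not overlap for either gene, both picked from the called genes. All 24 high-fat members had Cd74 UMIs, against 15 of 25 members of LFD_shYap and 6 of 11 of LFD_WT. High-fat members were the deeper cells, and the diets were not compared at equal depth. Among other macrophages H2-Ab1 differed by 1.43 and Cd74 by 1.37 in the same direction (edgeR adjusted p = 0.0064 and 0.088). Without the Xist-bearing members the median of these 6 genes was 2.06 with none called, and DESeq2 called 2 of the 6.

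Genes outside antigen presentation were called as well. Ptgs2, the inducible cyclooxygenase, stood at 169 and 168 CPM in high-fat members (HFD_shYap, HFD_WT), against 9.08 and 6.28 CPM in low-fat members (LFD_shYap, LFD_WT), from UMIs in 8, 4, 2 and 1 cells (4.25 ± 0.52, edgeR adjusted p = 2.3e-12). Il1rn, the interleukin 1 receptor antagonist, stood at 90.4 and 76.2 CPM, against 6.81 and 12.6 CPM. Spp1, which encodes osteopontin, stood at 4906 and 2914 CPM, against 1119.7 and 879.8 CPM, from UMIs in 5, 13, 19 and 8 cells. In HFD_shYap 1 cell held 72.9% of the Spp1 UMIs, and in LFD_WT 1 cell held 79.3%. Tgm2, a transglutaminase, stood at 629 and 489 CPM, against 161 and 107 CPM. In each of these genes both high-fat libraries lay above both low-fat libraries. They were picked from the called genes, which favours such an order, so it is a description. In other macrophages Ptgs2 (0.77) and Tgm2 (0.86) were also called by edgeR, while Il1rn (0.57) and Spp1 (-0.41) were not. In members the named genes Selp (3.05 ± 0.55) and Serpinb2 (2.38 ± 0.45) were called too. The Serpinb2 levels of HFD_WT and LFD_WT, 178 and 182 CPM, did not follow the diet. Ucp1, the uncoupling protein of brown fat, was called at 3.18 ± 0.85 from UMIs in 8 cells.

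Of 11 tested resident tissue macrophage genes, 3 were lower in high-fat members and none higher. Lyve1, a hyaluronan receptor, stood at 196 and 70.1 CPM in members of HFD_shYap and HFD_WT, against 248 and 509 CPM in LFD_shYap and LFD_WT (-1.61 ± 0.38, edgeR adjusted p = 0.0043). Cd163, the hemoglobin scavenger receptor, stood at 86.6 and 54.1 CPM, against 177 and 201 CPM (-1.49 ± 0.38). Vsig4 stood at 618 and 204 CPM, against 786 and 1345 CPM (-1.56 ± 0.39), and Cxcl13 at 90.4 and 6.01 CPM, against 259 and 157 CPM. The changes of Lyve1, Cd163, Vsig4 and Cxcl13 in other macrophages were -2.27, -2.25, -1.83 and -1.06, each called by edgeR. Hp, a hemoglobin-binding plasma protein, was lower (-2.51 ± 0.55), with 45.2% of its UMIs in 1 cell. Apoc1 had 0 UMIs in both high-fat libraries, against 45.4 and 138 CPM in LFD_shYap and LFD_WT. In other macrophages it was also called lower, at -0.98. The calls of S100a8 and S100a9 came from 1 cell of LFD_shYap, which held 94.3% and 99.5% of their UMIs.

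**Figure D5:**
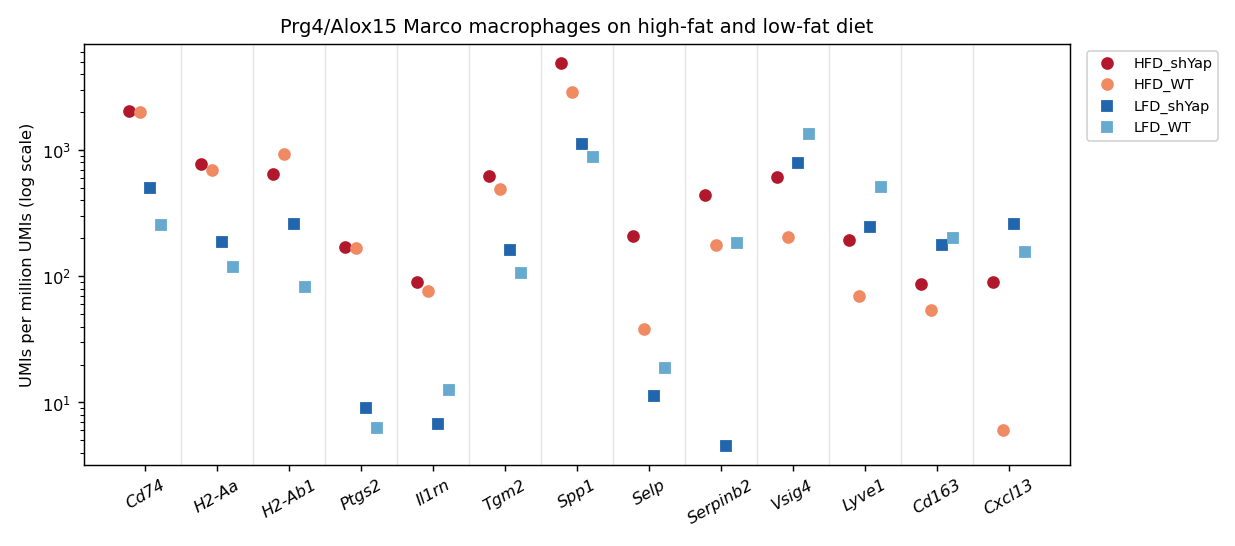
CPM (log axis) of 13 genes summed over the members of each library, with red circles for the high-fat libraries at the left of each gene and blue squares for the low-fat libraries at the right. Cd74, Ptgs2, Il1rn, Spp1 and Tgm2 are higher in both high-fat libraries, Lyve1, Cd163 and Vsig4 lower, and Serpinb2 overlaps between diets; each point is 1 library of 9, 15, 25 or 11 cells.

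Whether a diet change differed between members and other macrophages was tested as an interaction over the 8 sums. edgeR's quasi-likelihood test called 0 of 12834 genes, with 301 at an unadjusted p under 0.05, its default setting called 41 and DESeq2 11 of 1538. With 1 residual degree of freedom, 0 calls do not show that the changes were alike.

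The tumour line comparison gave fewer calls. Of 4313 genes, 9 (0.209%) were higher and 14 (0.325%) lower in members from the libraries labelled shYap than in those labelled WT, while DESeq2 called 0 (30 at an unadjusted p under 0.05) and so did the comparison without LFD_WT (269). Of 16 tested chemokines 5 were lower and 2 higher. Ccl8, a chemoattractant of monocytes like Ccl2 and Ccl7, stood at 11.3 and 27.3 CPM in HFD_shYap and LFD_shYap, against 226 and 88 CPM in HFD_WT and LFD_WT (-2.75 ± 0.46, edgeR adjusted p = 2.5e-06). Ccl2 stood at 275 and 75 CPM, against 603 and 547 CPM, and Ccl7 at 94.1 and 27.3 CPM, against 234 and 346 CPM. Cxcl10, an interferon-induced chemokine, stood at 3.77 and 0 CPM, against 104 and 101 CPM, from UMIs in 10 cells in all, and Iigp1, an interferon-induced GTPase, at 3.77 and 6.81 CPM, against 140.3 and 62.8 CPM. The richest single cell held 43.7% of the Ccl8 UMIs of all members, 38.1% for Iigp1 and 34.8% for Cxcl10. For Ccl2 and Ccl7 it held 19.0% and 15.3%. In other macrophages Cxcl10 was also called lower by edgeR (-0.85). Ccl8 (-0.68), Ccl2 (-0.60), Ccl7 (-0.34) and Iigp1 (-0.33) had the same direction there and were not called. In these 5 genes both shYap libraries lay below both WT libraries. They were picked from the called genes, which favours such an order, so it is a description.

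Genes called higher in the libraries labelled shYap were Il6, Aspa, Cxcl13 and Ccrl2 among those named. Cxcl13 stood at 90.4 and 259 CPM in HFD_shYap and LFD_shYap, against 6.01 and 157 CPM in HFD_WT and LFD_WT. Its HFD_shYap value thus lay below that of LFD_WT. In other macrophages Cxcl13 differed by 2.03, called by edgeR, while Il6 (0.17), Aspa (0.91) and Ccrl2 (-0.23) were not called. Il6, a cytokine of the acute phase response, stood at 173 and 31.8 CPM in HFD_shYap and LFD_shYap, against 6.01 and 12.6 CPM in HFD_WT and LFD_WT (3.77 ± 0.65, edgeR adjusted p = 5.0e-06), from UMIs in 6, 2, 2 and 2 cells of those libraries. Aspa, an enzyme that cleaves N-acetylaspartate, stood at 196 and 63.6 CPM, against 30.1 and 18.9 CPM, and was found in 37 members. The calls of S100a8 and S100a9 again rested on 1 cell, and those of Ccnd2, Hsph1 and Tm4sf1, all lower, on 16, 26 and 3 cells, with 93.8% of the Tm4sf1 UMIs in 1 cell of HFD_WT. With LFD_shYap read as high-fat, 41 genes were called, 18 of the 23 among them.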

How the data were processed

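Raw UMI counts per gene and barcode were deposited for 4 libraries. The file headers record Cell Ranger 6.0.0. The mm10 build, STAR 2.5.1 and an earlier Cell Ranger, 4.0.0, stand in the submitters' processing notes. The members and gene lists were chosen with earlier results of these data known. Counts were summed per library over members and over other macrophages and tested with edgeR 4.0.16 in R 4.3.3, by the quasi-likelihood test with bias-adjusted deviances, TMM, filterByExpr and Benjamini-Hochberg adjustment at 0.05. That setting was chosen after seeing the data, because the default estimated no spread of dispersions between genes. In the diet and line fits, with 1 residual degree of freedom, it did so too, so those p-values rest on a spread pooled over genes and treated as known. The member comparison had 3. SE is the absolute log2 fold change divided by the square root of F. DESeq2 1.42.0 and RLE were alternatives. Fits were tested on simulated data. Doublets were ranked by score with scanpy 1.11.5, about 0.8% per 1000 barcodes, since the automatic threshold called almost none in most libraries. The naming rule took, among calls with at least 50 CPM in the higher class, the 12 highest and 10 lowest fold changes of the same direction in all 4 libraries. For diet and line it took 6 each way. It left out rule, mitochondrial, ribosomal, immunoglobulin, T cell receptor, hemoglobin, clone-named and sex-linked genes. Up to 4 genes per list with the smallest p and every large peritoneal gene were added. Coordinates are from GENCODE M21, in which 32158 of 32285 identifiers matched. No strand or splice form was analysed. Some genes on the lists are counted but not reported here by name.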

Additional observations from a re-analysis of the deposited data

How the results depend on the processing

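Each value rests on 9 to 25 cells per library, and a check at equal depth was made for the shares and for the comparison with other macrophages. With every barcode thinned to 3000 UMIs before the rule, the share of members was 0.0935% in HFD_shYap, 0.0815% in HFD_WT, 0.275% in LFD_shYap and 0.0467% in LFD_WT. Under the stricter rule it was 0.131%, 0.139%, 0.348% and 0.0599% in the same order. The count of genes that differed from other macrophages was 1486 of 12834 tested. It was 767 of 10484 when thinned, 933 of 7536 against macrophages with Marco alone and 715 of 4383 against Clec4f-positive macrophages. The numbers tested differ, so these counts are not alike. With 1 library left out the count was 887 to 1271. Without LFD_shYap it was 887, and of the 1486 genes 860 were still called. The 37 diet calls became 5 with DESeq2, 0 without a filter on low counts (305 at an unadjusted p under 0.05), 6 without barcodes of highest doublet score, 15 without the member richest in S100a8 and S100a9, 8 under the stricter rule, 0 without Xist-bearing members, and 4 to 63 with 1 library left out. The 23 line calls became 0 with DESeq2, without a filter (323), without the doublet-ranked barcodes (165) and under the stricter rule (121), 12 without the S100a8-rich member, 41 with LFD_shYap read as high-fat, 1 without Xist-bearing members, and 0 to 27 with 1 library left out. The interaction, with 0 calls by edgeR (301 unadjusted), had 11 with DESeq2 and 41 with edgeR's default. Directions reversed against Clec4f-positive macrophages for Cd5l (-1.59), Vsig4 (-0.77) and Timd4 (-1.34). S100a9 reversed for diet without LFD_shYap (5.96) and with it read as high-fat (6.69), and for line without LFD_shYap (-2.69). With 1 library left out, S100a9 ranged from -10.61 to 5.96 for diet and from -2.69 to 13.83 for line, and S100a8 from -1.20 to 5.62 for line. S100a8 reversed for line without its richest member (-0.45) and without LFD_shYap (-1.20). The cause of these changes was not tested. Each diet and line combination had 1 library, so there were no replicate libraries to pair between combinations. The member comparison paired members with the other macrophages of the same library, by keeping library as a block.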

Other observations

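Oxidative and metabolic gene groups of the members have not been described above. Of 14 hypoxia and glycolysis genes, 6 were higher than in other macrophages and 1 lower, with Adm, a vasodilator peptide, at 2.23 and Aldoa, an enzyme of glycolysis, at 0.98 on the log2 scale, and Vegfa at -0.78. Of 12 heme and iron genes 4 were higher, among them Ftl1 (0.68), which stores iron, and 1 was lower, the iron exporter Slc40a1 (-2.66). Of 10 retinoic acid genes 3 were higher and none lower, Rarb (5.43), Rarg (1.37) and Tgm2 (1.07). Of 9 glucocorticoid target genes 3 were higher and 1, Ddit4, lower (-2.70).

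Of 15 complement genes 5 were higher, among them C4b (1.73), and 5 lower, among them the C1q chain genes C1qa (-0.28) and C1qb (-0.39). Of 8 tested genes on the acute phase list 3 were higher and 2 lower. The higher ones were Saa3, Lbp (4.96) and Ifitm6 (2.25), which belongs to the interferon-induced transmembrane family. Of 12 alternative activation genes 5 were higher and 2 lower, and of 12 classical activation genes 2 were higher, Il6 (3.61) and Il1a (1.91), and 5 lower, with Il1b at -1.95. Of 13 efferocytosis genes 4 were higher and 3 lower, with the receptor gene Axl at -1.01. Of 14 cell cycle genes none was higher and 4 were lower, with Tyms at -1.55 and Mki67, which was not called, at -0.31. Of 11 resident tissue macrophage genes 4 were higher and 5 lower, and of 6 alveolar macrophage genes 2 were higher, Olr1 and Chil3 (2.08), while Siglecf had 0 UMIs in the members. All calls are by edgeR at an adjusted p under 0.05, and the share of all tested genes was 5.49% higher and 6.09% lower.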
